A study of Mus musculus with 6 samples.

Results

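The core circadian clock genes were 10 genes, taken by symbol from the 30914 genes for which FPKM (fragments scaled to the length of the transcript and to all mapped fragments) were deposited: the activators Arntl and Clock, the repressors Per1, Per2, Per3, Cry1 and Cry2, the nuclear receptors Nr1d1 and Nr1d2, and the output gene Dbp. All 10 had values above 0 in every library, and 9 of the 10 passed the filter for testing (3 or more of the 6 libraries at 0.5 FPKM or above), as 13089 genes did in all. Arntl did not pass. The libraries came from heart RNA, selected for poly(A), of 3 mice given Ang II alone (Ang II group) and 3 given Ang II and Tec (Ang II + Tec group). All mice were wild-type C57BL/6J males, 8 weeks old at the start and kept in an evenly divided light/dark cycle, and all received angiotensin II (Ang II) at 1 μg/kg/min from an osmotic pump for 4 weeks, so the comparison holds no heart without Ang II. The Ang II + Tec group also received tectochrysin (Tec), a plant flavonoid, at 5 mg/kg by daily intraperitoneal injection in the final 2 weeks. The hour at which the hearts were taken and any vehicle injection of the Ang II group are not given in the sources used here. The question was whether the phase genes of the clock stood at like levels in both groups, as a check on the time of collection.

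The clock is a feedback loop of transcription that runs in nearly every cell, heart muscle included. The proteins of Arntl (BMAL1) and Clock bind E-boxes as a pair and activate the Per, Cry, Nr1d and Dbp genes; PER and CRY proteins then block that pair, while the NR1D receptors (REV-ERBs) repress Arntl through ROR elements (ROREs) and DBP acts on D-boxes. In tissues of mice kept in light/dark cycles, Arntl RNA is highest around dawn and lowest towards dusk, Nr1d1 and Dbp are highest in the day, and Per2 follows towards dusk. In the heart the clock is known for daily rhythms of metabolism and of ion channels.

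Promoter windows of 9 of the 10 genes were found in the RefSeq table (GRCm38.p6), each from 250 bases before to 50 bases after a transcription start. Per2 had no entry. The 13 windows were searched on both strands for the E-box CACGTG, for the D-box as TTATGTAA or TTACGTAA, and for the RORE. Windows of Arntl, Per1, Per3 and Cry1 held a match. These windows are printed 5′ to 3′ on the strand of the gene, with the matched motif in capitals, to show where the letters matched.
Arntl, chr7:113207261-113207560, plus strand, RORE: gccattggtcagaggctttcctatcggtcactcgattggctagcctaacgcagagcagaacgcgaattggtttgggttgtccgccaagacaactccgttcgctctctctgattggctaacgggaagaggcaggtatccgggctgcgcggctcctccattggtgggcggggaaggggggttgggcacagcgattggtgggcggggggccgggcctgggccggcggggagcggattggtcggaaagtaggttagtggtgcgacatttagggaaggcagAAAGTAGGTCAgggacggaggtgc
Per1, chr11:69098699-69098998, plus strand, E-box: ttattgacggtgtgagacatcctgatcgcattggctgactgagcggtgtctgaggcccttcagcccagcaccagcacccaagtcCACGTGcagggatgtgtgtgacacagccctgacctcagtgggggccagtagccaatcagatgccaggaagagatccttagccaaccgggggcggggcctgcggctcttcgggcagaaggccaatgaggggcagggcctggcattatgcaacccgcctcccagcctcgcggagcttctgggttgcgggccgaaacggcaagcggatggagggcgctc
Per3, chr4:151044616-151044915, minus strand, D-box at 2 places: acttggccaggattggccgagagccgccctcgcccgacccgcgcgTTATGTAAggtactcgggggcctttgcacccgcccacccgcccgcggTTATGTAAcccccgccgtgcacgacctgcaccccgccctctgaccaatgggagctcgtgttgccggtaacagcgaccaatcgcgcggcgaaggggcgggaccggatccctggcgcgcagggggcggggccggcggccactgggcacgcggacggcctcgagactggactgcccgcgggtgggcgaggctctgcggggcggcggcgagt
Cry1, chr10:85185005-85185304, minus strand, E-box: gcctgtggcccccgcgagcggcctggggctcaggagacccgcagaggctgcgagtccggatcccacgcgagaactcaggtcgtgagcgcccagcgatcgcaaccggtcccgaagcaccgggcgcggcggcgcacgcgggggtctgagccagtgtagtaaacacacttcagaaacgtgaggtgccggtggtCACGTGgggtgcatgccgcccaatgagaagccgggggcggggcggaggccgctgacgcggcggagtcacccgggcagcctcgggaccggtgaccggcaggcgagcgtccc
Counted from the start, the first letter of the Per1 E-box lay at -166, that of the Cry1 E-box at -60 and those of the Per3 D-boxes at -205 and -158, and the Arntl RORE began 26 bases after the first transcribed base. Of 32851 promoter windows of this length in the table, 7.15% held the E-box, 1.06% the D-box and 0.384% the RORE. The windows of Clock, Cry2, Nr1d1, Nr1d2 and Dbp held none of these letters, which says nothing of sites elsewhere in those genes. No binding was measured here, and a match is a description of the letters.

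The libraries differed in scale. The sums of FPKM ranged from 516699 to 629989, transcripts of the mitochondrial genome made up 40.1% to 48.9% of that sum without Tec and 49.6% to 52.5% with it, and 20998 to 22385 genes were above 0. As deposited, the tested genes had a median log2 fold change of -0.17 (Ang II + Tec minus Ang II). After each library was rescaled, that is divided by its median ratio to the geometric mean of each gene, the median was 0.0087. The fold change of each clock gene is therefore given on both scales. Cardiomyocyte markers were high in every library (summed FPKM of 5 genes 2694 to 4132). Other marker sums differed between libraries, and some between the groups. The 5 fibroblast markers summed to 418, 502 and 106 FPKM in Ang II replicates 1 to 3, against 97.6, 161 and 110 FPKM with Tec. The 5 macrophage markers summed to 66.6 to 118 FPKM against 42.1 to 48.1 FPKM, without overlap between the groups. C1qa made up most of each sum. Singly, C1qa, Cd68 and Csf1r were lower without overlap, where 21.8% of all tested genes had groups that did not overlap. Adgre1 overlapped, as did Cd163 (3.12 to 4.72 against 3.47 to 4.32 FPKM). The 5 atrial markers summed to 6205, 10250 and 256 FPKM in Ang II replicates 1 to 3, against 906, 5056 and 128 FPKM with Tec. Nppa (Anp), which the paper reads as a gene of hypertrophy, made up most of each sum. It measured 5568, 9456 and 256 FPKM against 906, 3489 and 125 FPKM, so these sums are not a measure of atrial tissue alone. Myl7, Sln and Bmp10 were at 0 in some library. Of these, Myl7 measured 419, 332 and 0 FPKM against 0, 1040 and 1.58 FPKM, so the libraries differed in RNA of atrial markers. Whether they differed in the tissue taken was not tested. Of skeletal muscle markers 4 were among the deposited genes and summed to 0.29 to 0.7 FPKM against 10.4 to 12.0 FPKM, also without overlap. Atp2a1 and Mylpf carried these sums, while Myh1 and Myh2 were at 0 to 0.02 FPKM. The adipocyte markers summed to 11.8, 33.4 and 0.86 FPKM in Ang II replicates 1 to 3, against 0.23, 78.7 and 2.65 FPKM with Tec. These sums overlapped between the groups, as did those of erythroid (152 to 625 against 93.0 to 324 FPKM), endothelial (71.2 to 77.9 against 64.7 to 72.8 FPKM) and smooth muscle markers (185 to 282 against 156 to 251 FPKM). The part of cell composition in the clock gene values was not tested, and in whole tissue fewer cells of a type and less RNA per cell cannot be told apart.

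The clock genes of all 6 hearts showed high output and receptor genes and very little Arntl. Dbp had the highest mean over the 6 libraries (28.5 FPKM), followed by Nr1d2 (24.7 FPKM), Nr1d1 (9.45 FPKM), Per1 (7.62 FPKM), Per2 (6.79 FPKM), Cry1 (4.52 FPKM), Per3 (4.48 FPKM), Cry2 (3.35 FPKM), Clock (1.64 FPKM) and Arntl (0.135 FPKM). FPKM are per length of transcript, so these levels may be compared between genes. The ranges over the 6 libraries were separate for Nr1d2 and Nr1d1, for Cry2 and Clock, and for Clock and Arntl. The other 6 neighbouring pairs overlapped in range, although Nr1d1 exceeded Per1, Per2 exceeded Cry1, and Per3 exceeded Cry2 in 6 of 6 libraries. Dbp and Nr1d2 lay above 91.8% and 90.6% of the tested genes in mean level, whereas Clock lay above 28.4%.

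**Figure D1:**
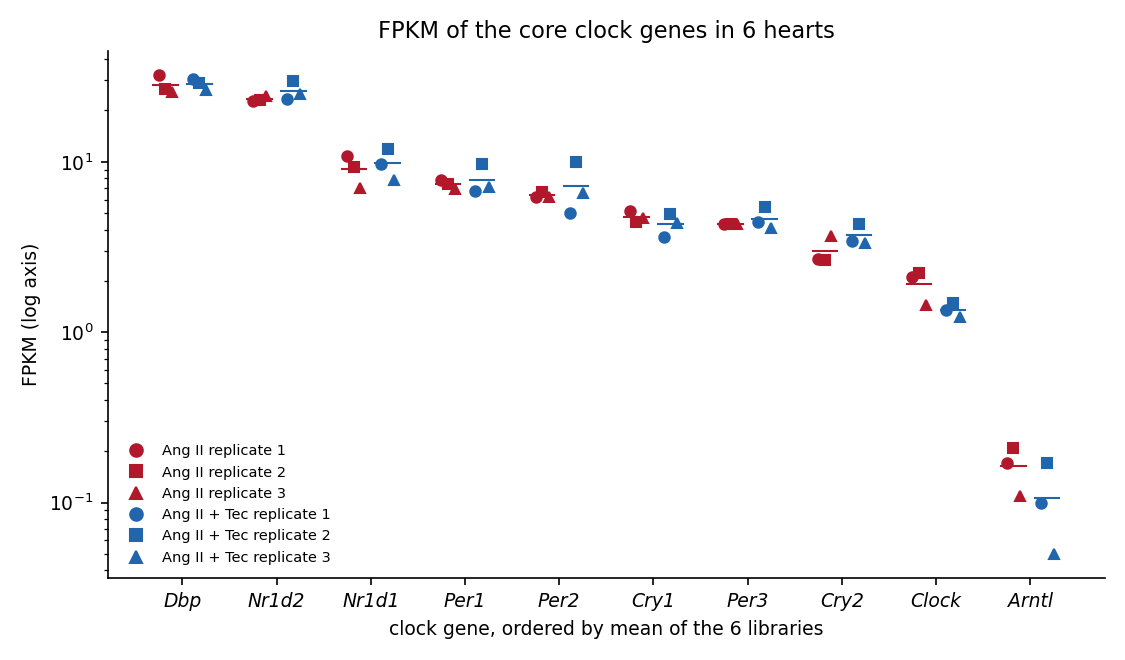
FPKM (log axis) of the 10 clock genes, ordered by their mean over 6 libraries. Each point is 1 heart (red: Ang II, blue: Ang II + Tec, marker shape: replicate number) and each short line the mean of 3. Dbp and Nr1d2 lie between 22.8 and 32.4 FPKM, Arntl between 0.05 and 0.21 FPKM, and for every gene the points of the 2 groups overlap.

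Arntl (chr7:113207465-113314126, plus strand) was lowest of the clock genes in every library. It measured 0.17, 0.21 and 0.11 FPKM in Ang II replicates 1 to 3, and then 0.10, 0.17 and 0.05 FPKM in replicates 1 to 3 of the Ang II + Tec group. The values ran from 0.05 FPKM in Ang II + Tec replicate 3 to 0.21 FPKM in Ang II replicate 2, and the groups overlapped. An exact permutation test, 2-sided, gave p = 0.3, where 3 against 3 cannot go below 0.1. At 2 decimals in the deposited values, the lowest of these is known only coarsely. Without the filter, limma gave a log2 fold change of -0.07 (SE 0.05, adjusted p = 0.606). After rescaling its difference on log2(FPKM + 1) was -0.04.

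Clock (chr5:76209868-76304792, minus strand), the partner of BMAL1, was the one activator that could be tested. It measured 2.10, 2.22 and 1.44 FPKM in the Ang II replicates. With Tec it measured 1.35, 1.49 and 1.22 FPKM. The Ang II + Tec values lay below Ang II replicates 1 and 2, and Ang II replicate 3 lay among them. The log2 fold change was -0.30 (SE 0.14, adjusted p = 0.286 by limma), the largest in size among the clock genes tested. After rescaling it was -0.15 (95% CI -0.34 to 0.05). Without Ang II replicate 3, it was -0.43 with an adjusted p of 0.0312 by limma, in a fit where 43.6% of all tested genes had an unadjusted p under 0.05, against 18.6% with all libraries.

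The period genes encode the repressors whose RNA follows the activators' rhythm. Per1 (chr11:69095217-69109960, plus strand) measured 7.85, 7.37 and 6.96 FPKM in the Ang II group and 6.74, 9.65 and 7.16 FPKM in the Ang II + Tec group. Per2 (chr1:91415982-91459324, minus strand) measured 6.23, 6.68 and 6.24 FPKM against 4.99, 10.02 and 6.60 FPKM. Ang II + Tec replicate 2 was the highest of the 6 libraries in both genes and Ang II + Tec replicate 1 the lowest, so the groups overlapped. Per3 (chr4:151003652-151044665, minus strand) measured 4.32, 4.29 and 4.33 FPKM in the Ang II group, a spread of 0.0208 FPKM (SD, n = 3), and 4.46, 5.40 and 4.06 FPKM in the Ang II + Tec group. Here too replicate 2 of the Ang II + Tec group was highest. The log2 fold changes of Per1, Per2 and Per3 were 0.06 (SE 0.15), 0.11 (SE 0.21) and 0.08 (SE 0.12), with adjusted p-values of 0.808, 0.776 and 0.707 by limma. Without Ang II + Tec replicate 2 they were -0.08, -0.13 and -0.02. After rescaling, with all libraries, they were 0.28, 0.32 and 0.28.

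The cryptochromes are the partners of the PER proteins, and CRY1 is the strong repressor of the loop. Cry1 (chr10:85131700-85185064, minus strand) measured 5.15, 4.42 and 4.67 FPKM in the Ang II group and 3.6, 4.93 and 4.35 FPKM in the Ang II + Tec group. Cry2 (chr2:92403646-92434043, minus strand) measured 2.68, 2.64 and 3.69 FPKM against 3.42, 4.32 and 3.36 FPKM. In Cry2, Ang II replicate 3 lay above Ang II + Tec replicates 1 and 3, and the groups of both genes overlapped. The log2 fold change of Cry1 was -0.12 (95% CI -0.44 to 0.19) as deposited and turned to 0.07 (95% CI -0.20 to 0.35) after rescaling. That of Cry2 was 0.24 (95% CI -0.12 to 0.59) and 0.42 (95% CI 0.01 to 0.82), with adjusted p-values of 0.387 and 0.32 by limma. As deposited, Cry1 was at -0.03 without Ang II + Tec replicate 1 and at -0.21 without Ang II + Tec replicate 2. Cry2 ran from 0.14 without Ang II + Tec replicate 2 to 0.35 without Ang II replicate 3.

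The REV-ERB receptors are the repressors of Arntl, and both were well above it. Nr1d1 (chr11:98767932-98775333, minus strand) measured 10.84, 9.38 and 7.01 FPKM in the Ang II group and 9.68, 11.92 and 7.84 FPKM in the Ang II + Tec group. Nr1d2 (chr14:18204054-18239127, minus strand) measured 22.80, 23.09 and 24.41 FPKM against 23.33, 29.75 and 25.03 FPKM. The replicate 3 libraries were the lowest of each group in Nr1d1, and in Nr1d2 Ang II replicate 3 lay above Ang II + Tec replicate 1. The log2 fold changes were 0.10 (SE 0.20, adjusted p = 0.761) for Nr1d1 and 0.14 (SE 0.12, adjusted p = 0.506) for Nr1d2 by limma. After rescaling they were 0.33 and 0.37. As deposited, Nr1d2 was at 0.04 without Ang II + Tec replicate 2. Nr1d1 was at -0.05 without Ang II replicate 3, and leaving out Ang II + Tec replicate 2 put it at -0.03. On the opposite strand the exons of Nr1d1 share 263 exonic bases (8.55%) with Thra, a thyroid hormone receptor gene, and whether the counting used strand is not given, so their reads cannot be told apart there. Thra measured 13.9, 12.6 and 10.3 FPKM in the Ang II group and 8.03, 11.6 and 9.39 FPKM in the Ang II + Tec group.

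Dbp (chr7:45705088-45710203, plus strand) encodes a PAR bZIP transcription factor of the clock's output and had a coefficient of variation over the 6 libraries of 9.16% as deposited and of 14.7% after rescaling. It was the lowest of the clock genes in this on the first scale but not on the second, where Cry1 was at 11.2%. Dbp measured 32.44, 26.86 and 25.72 FPKM in the Ang II group and 30.47, 29.19 and 26.54 FPKM in the Ang II + Tec group. All Ang II + Tec values lay within the Ang II range. The log2 fold change was 0.02 (95% CI -0.27 to 0.32, adjusted p = 0.918 by limma), and after rescaling it was 0.26 (95% CI -0.06 to 0.58). Dbp shares 539 of its exonic bases (18%) with Sphk2 on the opposite strand, which measured 2.90 to 4.55 FPKM.

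As deposited, 0 of the 9 clock genes tested were called at an adjusted p under 0.05 with a log2 fold change of 1 or more in size, against 0.16% of all tested genes. At the adjusted p alone the count was 0 as well, against 0.183%. At an unadjusted p under 0.05 the count was also 0 by limma, against 18.6% of all tested genes, and 0 of the 10 had groups that did not overlap, against 21.8%. Of the 9 log2 fold changes, 7 were above 0 (all but Clock and Cry1), whereas 20% of all tested genes were above 0, and the median of the 9 was 0.08 against -0.17 for all. After rescaling, 8 of the 9 were above 0, against 51.8%, with a median of 0.28. Per1 (log2 fold change 0.28), Per3 (0.28), Cry2 (0.42), Nr1d1 (0.33) and Nr1d2 (0.37), which make 5 of the 9, then had an unadjusted p under 0.05 by limma. All 5 were higher with Tec, against 7.56% of all tested genes, and 0 were lower at that limit, against 7.9%. Their adjusted p-values ran from 0.297 to 0.32, so 0 passed. On that scale the groups of Per1, Per3, Nr1d2 and Dbp, 4 of the 10, did not overlap, against 21.7% of all tested genes.

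With 1 library left out in turn, the count of 5 after rescaling ran from 0 to 5 by limma. It was 0 without replicate 2 of either group, 1 without Ang II replicate 1, and 2 when Ang II + Tec replicate 1 or 3 was left out. In these 5 fits the share of all tested genes at that limit was lower as well, at 7.05% to 11.4% against 15.5% with all libraries. The log2 fold changes of Per1, Per3, Cry2, Nr1d1 and Nr1d2 ran from 0.211 to 0.615 over the fits that left out a library. Without Ang II replicate 3 it was again 5, now with Clock lower in place of Nr1d1, and Per3, Cry2 and Nr1d2 had adjusted p-values under 0.05 (the smallest 0.00985). In that fit 32.7% of all tested genes had an unadjusted p under 0.05. Ang II replicate 3 was also the Ang II library with the low fibroblast, atrial and adipocyte marker sums given above.

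**Figure D2:**
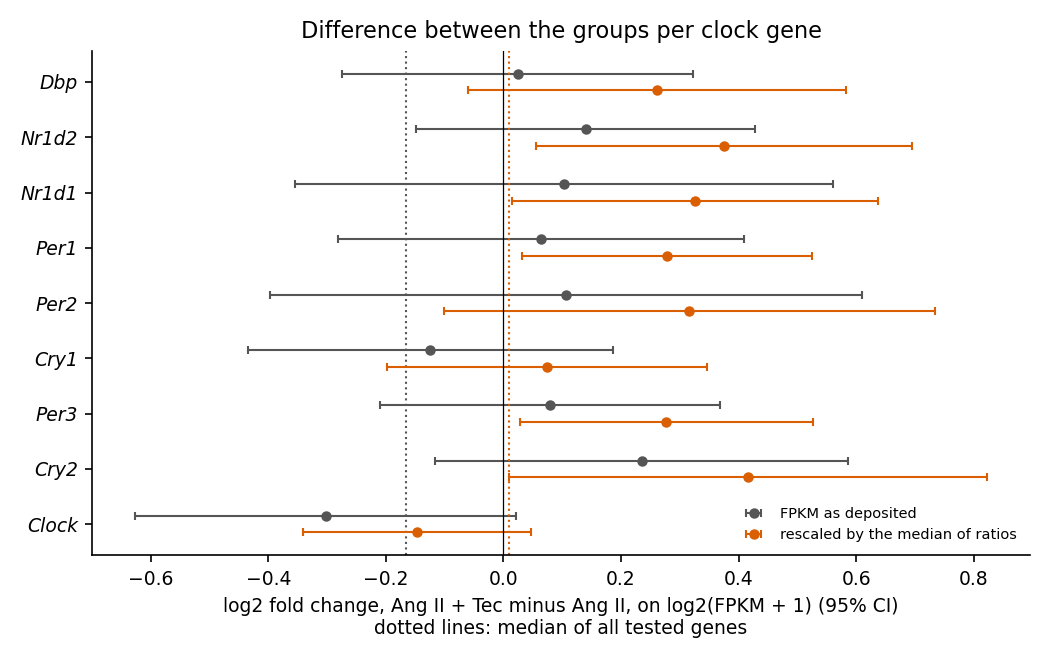
Log2 fold change (Ang II + Tec minus Ang II, on log2(FPKM + 1)) of the 9 clock genes tested, with 95% confidence intervals from limma, as deposited (grey) and after rescaling (orange); dotted lines mark the median of all tested genes on each scale. Every interval includes 0 as deposited, and those of Per1, Per3, Cry2, Nr1d1 and Nr1d2 lie above 0 after rescaling.

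The phase of the clock was compared within each heart, where a shift in scale weighs less. The dawn minus evening index was the mean log2(FPKM + 1) of Arntl, Clock and Cry1 minus that of Nr1d1, Nr1d2, Dbp, Per1, Per2 and Per3. It was -2.11, -2.06 and -2.13 in the Ang II hearts, against -2.31, -2.48 and -2.27 in those given Tec. All 3 Ang II + Tec hearts lay below all 3 Ang II hearts, by 0.25 on average (means -2.10 ± 0.0353 and -2.35 ± 0.111, SD, n = 3). The 6 libraries spanned 0.42. No p is given for the index, since its genes were chosen with earlier results known. Cry2 was left out of it, and how often contrasts of other genes part the groups was not computed. Without any 1 library the difference ran from -0.29 to -0.19, after rescaling it was -0.34, and without Cry1 in the index it was -0.27. A log2(FPKM + 1) scale shrinks low genes such as Arntl and Clock, and with a pseudocount of 0.1 the difference was -0.42. Gene by gene on the rescaled values, Arntl, Clock and Cry1 were at -0.15 to 0.07, and the 6 day-to-evening genes at 0.26 to 0.37.

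Single pairs of phase genes did not all separate the groups. Arntl minus Dbp, a pair of opposite phase, was -4.84, -4.53 and -4.59 in the Ang II group, against -4.84, -4.69 and -4.71 with Tec, a difference of -0.10 with overlap. Nr1d1 minus Per2, a day gene against a dusk gene, was 0.71, 0.43 and 0.15 against 0.83, 0.23 and 0.22. In that pair the replicate 1 libraries of both groups were the high ones, and the means differed by -0.0034. As a ratio of FPKM, Dbp exceeded Arntl 128 to 234 times in the Ang II group and 172 to 531 times in the Ang II + Tec group.

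Of 11 ratios between clock genes that were computed, 4 parted the groups and 7 overlapped. Among single genes, 21.8% of those tested had groups that did not overlap, and no such share was computed for ratios of other genes. The ratios of Dbp, Nr1d2 and Per1 share the denominator Clock and are not separate observations. Dbp was 15.4, 12.1 and 17.9 times Clock in the Ang II group, against 22.6, 19.6 and 21.8 times with Tec. Nr1d2 was 10.9, 10.4 and 17.0 times Clock against 17.3, 20.0 and 20.5 times. Per1 was 3.74, 3.32 and 4.83 times Clock against 4.99, 6.48 and 5.87 times. In each of these, Ang II replicate 3 was the Ang II heart nearest to the Ang II + Tec hearts. Nr1d2 to Cry1 also parted the groups (4.43 to 5.23 against 5.75 to 6.48). Per2 to Clock overlapped (2.97 to 4.33 against 3.70 to 6.72), as did Cry2 to Cry1 (0.52 to 0.79 against 0.772 to 0.95), Per3 to Cry1 (0.839 to 0.971 against 0.933 to 1.24) and Nr1d2 to Nr1d1 (2.10 to 3.48 against 2.41 to 3.19). Dbp to Arntl, Nr1d2 to Arntl and Nr1d1 to Per2 overlapped too. These pairs were chosen after the values had been seen.

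**Figure D3:**
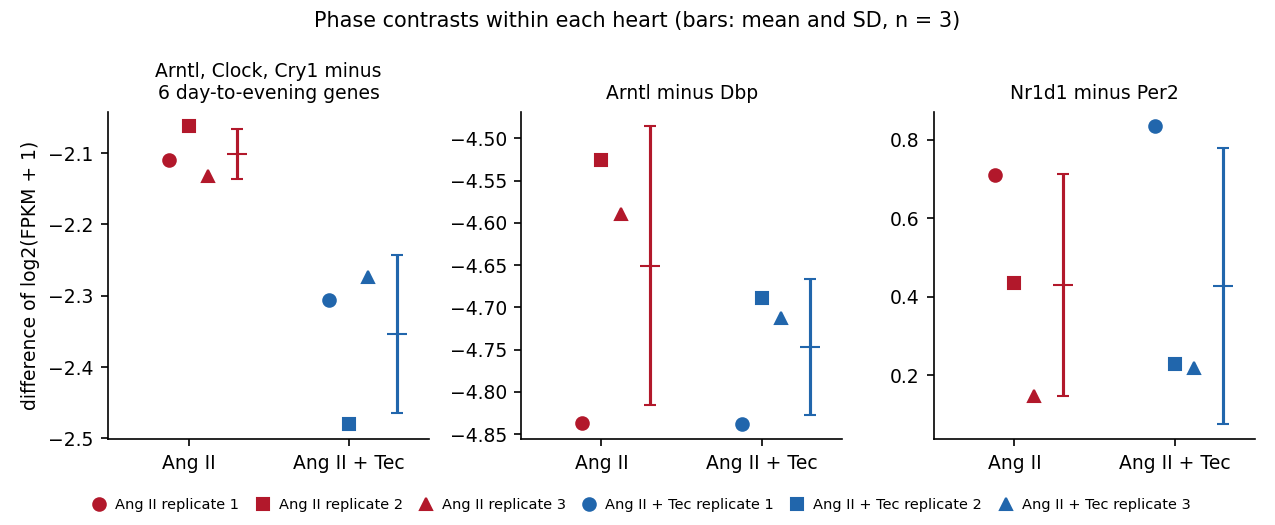
Phase contrasts in each of 6 hearts, as differences of log2(FPKM + 1), with the mean and SD of 3 beside the points (red: Ang II, blue: Ang II + Tec). In the first panel the Ang II hearts lie between -2.13 and -2.06 and the Ang II + Tec hearts between -2.48 and -2.27; in the other panels the groups overlap.

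The range over 6 libraries, on log2(FPKM + 1), had a median of 0.46 over the 9 tested clock genes, against 0.523 over all tested genes, and ran from 0.32 for Dbp to 0.88 for Per2. Of the 9, 4 (Per2, Nr1d1, Cry2 and Clock) had a range above the median of the tested genes. The highest FPKM of Per2 was 2.01 times its lowest, that of Dbp 1.26 times and that of Arntl, which was not tested, 4.2 times. Ang II + Tec replicate 2 was the highest library for Per1, Per2, Per3, Cry2, Nr1d1 and Nr1d2, 6 of the 10, where 17.9% of the tested genes were, and 6 of 10 remained so after rescaling, against 16.7%. This library was singled out after its values had been seen. Of the Ang II + Tec libraries it had the highest sums of the atrial markers (5056 FPKM) and of the adipocyte markers (78.7 FPKM). Their part in the clock gene values was not tested.

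Outside the core, 23 further clock genes were read, of which 20 were tested. Of these 20, 4 were higher and 16 lower with Tec as deposited, where 20% of all tested genes were higher. After rescaling 14 were higher, against 51.8% of all tested genes. By limma, 2 had an unadjusted p under 0.05, both higher, against 2.09% of all tested genes higher at that limit, and 0 passed adjustment. Ciart, a repressor of the BMAL1 and CLOCK pair, measured 2.03, 1.6 and 2.51 FPKM in the Ang II group and 3.24, 4.25 and 3.22 FPKM in the Ang II + Tec group (log2 fold change 0.59, SE 0.16, adjusted p = 0.201). Cipc, which encodes a CLOCK-binding inhibitor, measured 9.18, 9.05 and 11.02 FPKM against 12.26, 15.41 and 11.81 FPKM (0.39, SE 0.14, adjusted p = 0.234).

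The groups of Ciart and Cipc did not overlap, against 2.9% of all tested genes higher without overlap. Nfil3, Timeless and Wdr5, named after their values were seen, were lower without overlap as deposited, which makes 5 of 20 in either direction against 21.8%. The log2 fold changes of Nfil3, Timeless and Wdr5 were -0.19, -0.17 and -0.13 as deposited, and 0.003, -0.026 and 0.085 after rescaling. In Ciart and Cipc alike, Ang II replicate 3 was the Ang II library nearest to the Ang II + Tec group. After rescaling the log2 fold changes of this pair were 0.76 and 0.62, with adjusted p-values of 0.199 and 0.242 by limma. Without Ang II replicate 3, as deposited, the adjusted p-values were 0.0157 for Ciart and 0.0362 for Cipc, and with any other library left out the lowest adjusted p of either gene was 0.266. Rescaled and without Ang II replicate 3, they were 0.00659 and 0.0073 by limma. With array weights, where 46.4% of all tested genes had an unadjusted p under 0.05, they were 0.0283 and 0.0805. The PAR bZIP relatives of Dbp, Tef and Hlf, measured 22.8 ± 3.89 and 4.82 ± 1.09 FPKM in the Ang II group and 26.0 ± 3.21 and 6.28 ± 1.06 FPKM in the Ang II + Tec group (SD, n = 3), with overlap in both. Rescaled, their log2 fold changes were 0.42 and 0.53, with adjusted p-values of 0.359 and 0.314 by limma. With Ciart and Cipc, Hlf made 3 of the 20 with an unadjusted p under 0.05 on that scale. All 3 were higher, against 7.56% of all tested genes higher at that limit. Npas2, which can stand in for CLOCK, was at 0.26 to 0.44 FPKM and was not tested.

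**Figure D4:**
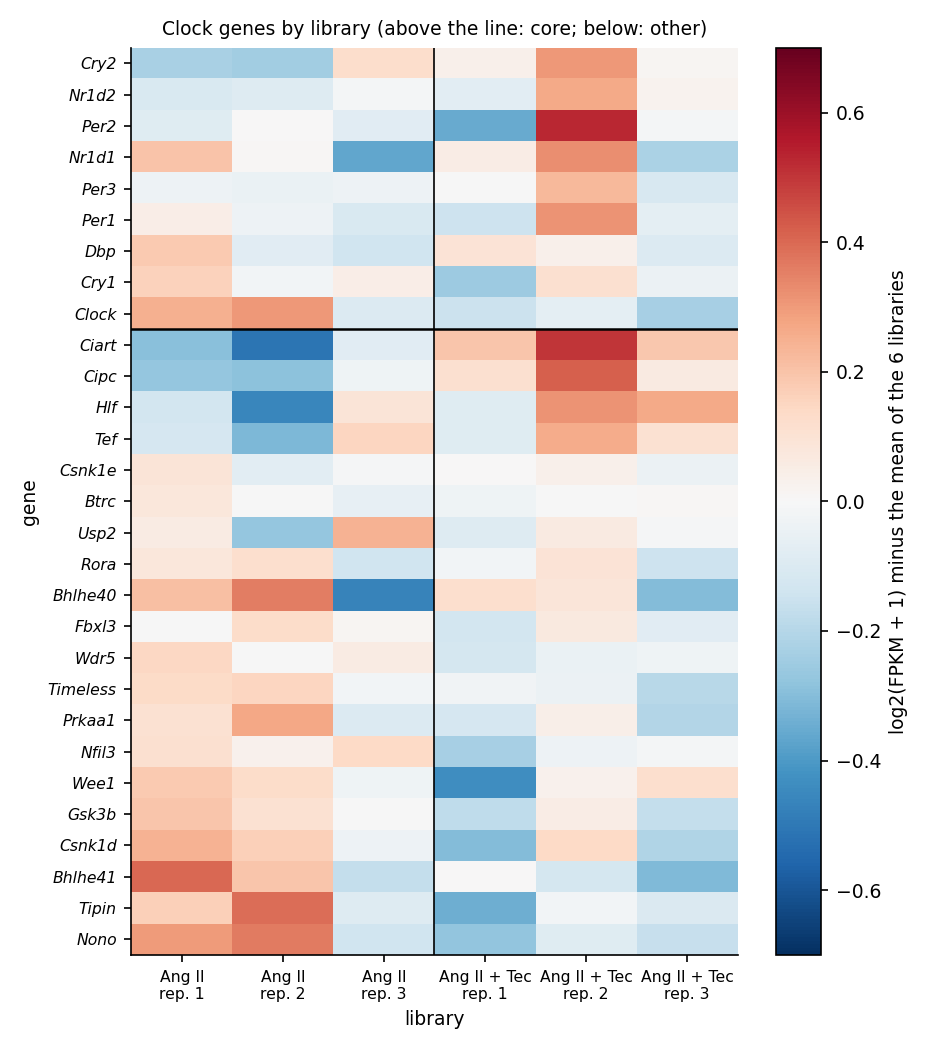
Log2(FPKM + 1) minus the mean of the 6 libraries (colour scale) for the 9 core clock genes tested, above the line, and the 20 other clock genes tested, below it, in order of log2 fold change within each block. Columns are libraries, Ang II on the left and Ang II + Tec on the right; Ciart and Cipc are below 0 in every Ang II library and above 0 in every Ang II + Tec library, and the strongest red among the core genes is Per2 in Ang II + Tec replicate 2.

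Lists of genes that answer to time, feeding, stress hormone and temperature were read beside the clock. As deposited, where 20% of all tested genes were above 0, 5 of 10 heart outputs of the clock were higher and 5 lower, and 1 had an unadjusted p under 0.05 by limma: Klf15, a transcription factor of heart metabolism, measured 17.3, 14.9 and 25.4 FPKM in the Ang II group and 23.2, 30.1 and 31.4 FPKM in the Ang II + Tec group (log2 fold change 0.55, adjusted p = 0.243). Bdh1, a ketone body enzyme, had the next lowest p (-0.78, adjusted p = 0.35). Of 10 glucocorticoid targets 5 were higher and 0 had an unadjusted p under 0.05, with Klf9 at 0.28 (adjusted p = 0.299) and Cdkn1a at 0.35 (adjusted p = 0.362). Of 6 fasting and PPARA targets 3 were higher and 0 had an unadjusted p under 0.05, with Acot2 at 0.55 (adjusted p = 0.309) and Ucp3 at -0.39 (adjusted p = 0.502).

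Of 6 temperature and heat shock genes 3 were higher. Dnajb1, a co-chaperone, had the lowest p of this list by limma (-0.53, unadjusted p = 0.0166, adjusted p = 0.224), and its groups did not overlap. Rbm3, a cold-induced RNA-binding protein gene, measured 24.7, 30.2 and 12.6 FPKM against 14.7, 16.0 and 13.4 FPKM (-0.50, adjusted p = 0.352). Of 12 immediate early genes tested 6 were higher, with Ier3 at -0.71 (unadjusted p = 0.0354, adjusted p = 0.249) and Nr4a1 at 0.82 (adjusted p = 0.284). By limma these lists held, among 44 genes tested, 0 that passed adjustment and 3 (Klf15, Dnajb1 and Ier3) with an unadjusted p under 0.05, against 18.6% of all tested genes. After rescaling 7 had one, against 15.5%, among them Klf9 (log2 fold change 0.51, unadjusted p = 0.0207) and Cdkn1a (0.57, unadjusted p = 0.0175). On that scale 8 of the 10 heart outputs, 9 of the 10 glucocorticoid targets, 5 of the 6 fasting targets, 4 of the 6 temperature and heat shock genes and 7 of the 12 immediate early genes were higher, where 51.8% of all tested genes were.

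The genes whose library pattern was most like that of Dbp were Meak7, Gm6254, Gm8355 and Noc4l, with a root mean square difference of centred log2(FPKM + 1) of 0.0336 to 0.0381 over the 6 libraries, out of 11039 candidates. For Arntl they were Pou6f1, Dmwd, Bicral, Eea1 and AU022252, at 0.0173 to 0.0227. Arntl itself ranged over only 0.21 on this scale. With so few libraries, these likenesses are a description.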

How the data were processed

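Poly(A) RNA of 6 mouse hearts was sequenced in paired ends. The authors removed adapters and poor reads (Cutadapt), looked at quality (FastQC) and deposited FPKM per gene and library. The submitters' processing notes name Bowtie 0.12.2, HISAT2 2.0, StringTie 1.3.0 and the build mm8, but the chromosome, start, end and strand of all 10 clock genes in the table are those of GENCODE M21 on GRCm38, and coordinates are given on that build. The labels name a NovaSeq instrument and the paper's methods a HiSeq. FPKM are not counts. The spacing of low values was examined and gave no stable relative depth, so depth is unknown and no counting interval is given. The error used is the spread between hearts, 3 in each group, grouped by the labels.

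The 13089 genes at 0.5 FPKM or above in 3 or more libraries were fitted on log2(FPKM + 1), which understates the change of low genes, with limma 3.58.1 (R 4.3.3; lmFit and a trended eBayes). P-values were adjusted by Benjamini-Hochberg over all tested genes. Figures used matplotlib 3.10.9, and tables pandas 2.3.3 and scipy 1.17.1. The fit was also run on simulated data with independent genes and no shift in scale between libraries. That run does not measure the error rate in the data here.

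The clock genes and the other lists were chosen with earlier results of these data known. All 10 clock genes are named. Of the other clock genes, those with an unadjusted p under 0.05 or a log2 fold change of 0.5 or more in size are named, with the 2 of lowest p in each further list and the genes most like Dbp (4) and Arntl (5). Items withheld from the text, and results that need them, are not reported here, and the counts of the other clock genes leave them out. The motifs, the windows printed, the FPKM ratios, Tef, Hlf and Npas2, and the count of genes highest in 1 library were chosen after values were seen. Alternatives changed the pseudocount, filter, scaling, replicate block, variance estimate, library weights and index, and left out each library. Rescaling together with leaving out a library was chosen after seeing the data.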

Additional observations from a re-analysis of the deposited data

How the results depend on the processing

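Over the alternatives run, 145 of 160 clock gene values were counted as the same, 14 as reversed and 1 as moved. At the limits of adjusted p and fold change, 0 clock genes were called. For tested genes the same means direction and side of the threshold, and for Arntl a move smaller than its SD within groups. The filters, replicate block and robust variance estimate leave a log2 fold change as it is, so those values were the same by construction. The largest in size was 0.456, under the limit of 1, so the side of the threshold did not bear on the count. Cry1 was at 0.074 after rescaling by median ratios, and with quantile normalization at 0.086. With array weights, whose estimate did not converge fully, Per1 was at -0.019, Per2 at -0.020, Per3 at -0.030 and Nr1d1 at -0.096. Leaving out each library in turn gave -0.077 to 0.153 for Per1, -0.129 to 0.310 for Per2, -0.016 to 0.154 for Per3, -0.053 to 0.240 for Nr1d1 and -0.040 to 0.122 for Dbp. In these, Per1, Per2 and Per3 were below 0 when Ang II + Tec replicate 2 was left out, Nr1d1 without that library or Ang II replicate 3, and Dbp without Ang II replicate 2, Ang II replicate 3 or Ang II + Tec replicate 1. Cry1 ran from -0.21 to -0.03, Cry2 from 0.14 to 0.35, Nr1d2 from 0.04 to 0.21 and Clock from -0.43 to -0.23. The cause was not tested. Arntl moved from -0.07 to -0.37 with a pseudocount of 0.1, a scale on which low values weigh more.

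The clock genes with an unadjusted p under 0.05 numbered 0 as deposited (18.6% of all tested genes), 5 after rescaling (15.5%), 4 after quantile normalization (16.2%) and 1 with array weights (46.4%). That 1 was Clock, which passed adjustment there (-0.43, adjusted p = 0.0362 by limma). Leaving out 1 library gave 0 to 2, the 2 (Clock and Cry2) without Ang II replicate 3 (43.6%), and after rescaling as well 0 to 5. The dawn minus evening difference was -0.42 with a pseudocount of 0.1, -0.34 after rescaling, -0.34 after quantile normalization and -0.10 as Arntl minus Dbp, and with 1 library left out it ran from -0.29 to -0.19, or after rescaling from -0.40 to -0.30 (-0.40 without Ang II replicate 3, and -0.35 and -0.37 when Ang II + Tec replicate 1 or 3 was left out). Over all genes, 21 were called as deposited, 3 without the filter and 522 with array weights. Leaving out 1 library gave 0 to 544 (544 without Ang II replicate 3) and after rescaling 0 to 328 (1, 12 and 328 without Ang II replicates 1, 2 and 3, and 0, 2 and 0 without those given Tec).

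With the replicate number as a block, 1 clock gene (Clock) had an unadjusted p under 0.05 (0.0431, adjusted p = 0.187) by limma, against 25.3% of all tested genes. The deviations of same-numbered libraries correlated at -0.039, 0.429 and 0.379 across genes, so the numbers were not taken as pairing the hearts. Libraries 2 and 3 of each group correlated best with their own number. Ang II replicate 1 correlated best with Ang II + Tec replicate 2 (0.212), and Ang II + Tec replicate 1 with Ang II replicate 3 (0.226). Ang II replicates 1 and 2 and Ang II + Tec replicate 2 were also the libraries with high atrial marker sums. The part of tissue content in these correlations was not tested. Arntl, at 0.05 to 0.21 FPKM, lies where the deposited decimals limit precision, and 3 hearts a group cannot give an exact p below 0.1.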
